A study of Homo sapiens with 24 samples.

Results

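Genes of TGF-beta and activin signaling were followed in PPC1 cells, a human prostate cancer cell line, before and after irradiation. The 10 genes were chosen by symbol from the 48162 genes of the count table, 1 row each: the ligand genes TGFB1, TGFB2, TGFB3 and INHBA, the receptor genes TGFBR1 and TGFBR2, the mediator SMAD3, the inhibitors SMAD7 and SKIL, and the response gene TGFBI. In hg19, the build of the table, the ligand genes lie as TGFB1 at chr19:41807492-41859816, TGFB2 at chr1:218519577-218617961, TGFB3 at chr14:76424442-76449334 and INHBA at chr7:41724712-41742706. The receptor genes lie as TGFBR1 at chr9:101866320-101916474 and TGFBR2 at chr3:30647994-30735634, and the others as SMAD3 at chr15:67356101-67487533, SMAD7 at chr18:46446223-46477081, SKIL at chr3:170075466-170114623 and TGFBI at chr5:135364584-135399507. RNA was sequenced from 4 conditions with 6 libraries each, 24 in all. Parental cells were harvested on day 5 without irradiation. Polyploid giant cancer cells (PGCC) received 8 Gy on day 2 and were kept back by a 20 micron filter on day 5. Each population was also taken after 5 h with 5 µM LCL521, a compound that inhibits acid ceramidase (ASAH1). The 4 conditions were harvested side by side on 6 separate occasions. The labels number the replicates 1 to 6 without saying that a number marks an occasion, and the pairing used here rests on how same-numbered libraries deviated together. The irradiated cells were also the filtered ones, so irradiation, survival for 3 days and selection by size cannot be told apart, and neither can an altered share of some cells in a culture and altered RNA per cell.

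TGF-beta ligands are secreted in a latent form, held in the matrix by latent TGF-beta binding proteins and released by proteases, integrins and thrombospondin. The active ligand binds the type II receptor TGFBR2, which phosphorylates the type I receptor TGFBR1, and TGFBR1 in turn phosphorylates SMAD2 and SMAD3. These join SMAD4, enter the nucleus and act with other factors at short DNA elements. Activin A, a dimer of the INHBA product, reaches the same SMADs through other receptors (ACVR2A or ACVR2B with ACVR1B), and follistatin binds and blocks it. SMAD7 and SnoN, the SKIL product, restrain the pathway, and both genes are known to be switched on by it. In epithelial cancers the pathway is known for growth arrest, for mesenchymal traits and for a place among the factors that stressed and senescent cells secrete.

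The libraries held between 14835246 and 19906601 reads counted on genes. A principal component carrying 16.5% of the variance set the 8 libraries of replicates 4 and 5 apart from the other 16 in all conditions, so values are also given without them. The epithelial keratin genes KRT8, KRT18 and KRT19 were abundant (at least 50.5 CPM, the counts scaled by library size, in every library). Much lower were the epithelial markers EPCAM, at or below 0.851 CPM, and CDH1, from 1.06 to 6.49 CPM. The prostate secretory genes KLK3 and KLK2 were at 0 counts throughout. Of 5 leukocyte markers only PTPRC passed 1 CPM on average, and their summed level was 0.464 to 2.97 CPM in parental cells and 2.84 to 4.43 CPM in PGCC, with CD3E and CD68 at no more than 2 counts. The summed level of 6 fibroblast markers was 7.05 to 15.2 CPM in parental cells and 12.5 to 16.5 CPM in PGCC, most of it COL1A1. Of the 6, 2 passed 1 CPM on average in parental cells and 3 in PGCC. Over all libraries COL3A1 ran from 0.699 to 4.47 CPM and PDGFRA from 0.0580 to 4.49 CPM, with DCN and LUM below 1 CPM. The part of these markers in the results was not tested.

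Per length of gene, TGFB1 was by far the most abundant of the 10 transcripts. Levels are given as FPKM, which is the CPM divided by the gene length of the table in kilobases. TGFB1 stood at 63.7 ± 4.56 FPKM (SD, n = 6) in parental cells and 83.7 ± 8.83 FPKM in PGCC. TGFBR2 followed with 16.7 ± 2.45 FPKM in parental cells and 28.3 ± 5.09 FPKM in PGCC, without overlap with TGFB1 in any condition. In parental cells came next TGFBR1 (9.35 FPKM), SMAD3 (9.11 FPKM), SKIL (5.74 FPKM), TGFB2 (5.53 FPKM), SMAD7 (2.98 FPKM) and TGFB3 (2.82 FPKM), and each of these overlapped its neighbour in that order. INHBA (0.131 ± 0.0375 FPKM) and TGFBI (0.0270 ± 0.0245 FPKM) lay below all of them. In PGCC, SMAD3 (17.1 FPKM) stood above TGFBR1 (9.26 FPKM) with no overlap, and INHBA, at 1.54 ± 0.590 FPKM, overlapped SMAD7. TGFB1 made up 88.6% ± 3.47 (SD, n = 6) of the summed FPKM of the 3 TGF-beta ligand genes in parental cells and 86.5% ± 5.17 in PGCC.

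**Figure D1:**
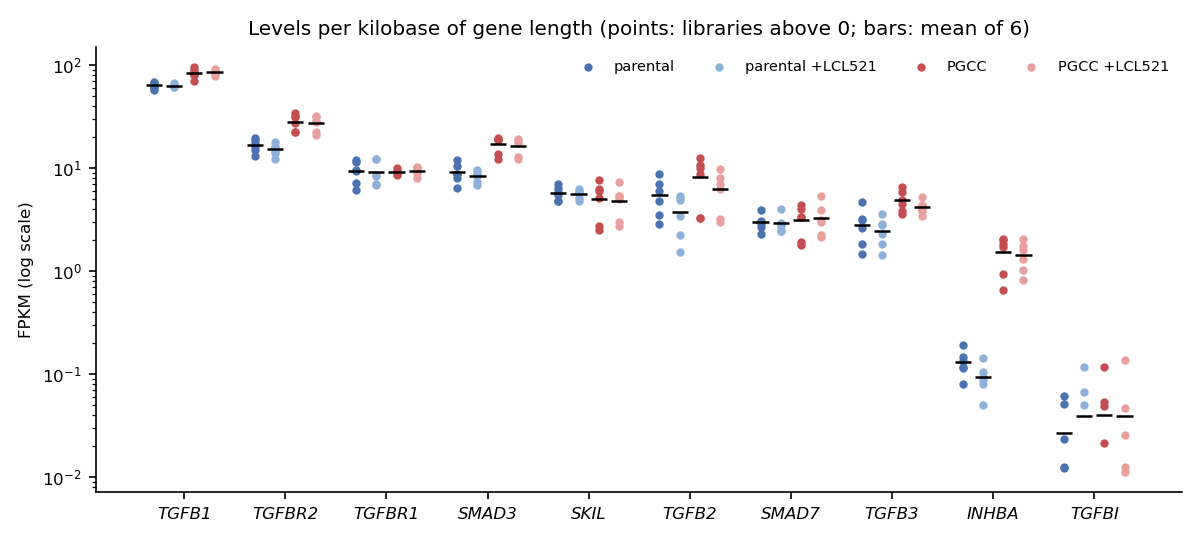
Levels of the 10 genes per kilobase of gene length (vertical axis, FPKM on a log scale) in the 4 conditions, with a point for each library above 0 and a bar at the mean of 6 libraries. TGFB1 lies at the top in every condition with means of 63.7 FPKM in parental cells and 83.7 FPKM in PGCC, INHBA rises from 0.131 to 1.54 FPKM, and TGFBI stays at the bottom.

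The promoters of 4 of these genes are shown because their transcripts set the main patterns: INHBA had the largest difference between the populations, TGFB1 the highest level, TGFB2 was the member called with LCL521, and SKIL was lowest in the PGCC of replicates 4 and 5. Each line holds the 250 bases before the transcript start in RefSeq (GRCh38.p14), 5′ to 3′ on the strand of the gene. The windows are chr7:41703091-41703340 on the minus strand for INHBA, chr19:41353923-41354172 on the minus strand for TGFB1, chr1:218345086-218345335 on the plus strand for TGFB2 and chr3:170357465-170357714 on the plus strand for SKIL. Capitals mark CAGAC (the SMAD-binding element) and GGGCGG (the GC box bound by SP1 factors), each searched on both strands.
INHBA: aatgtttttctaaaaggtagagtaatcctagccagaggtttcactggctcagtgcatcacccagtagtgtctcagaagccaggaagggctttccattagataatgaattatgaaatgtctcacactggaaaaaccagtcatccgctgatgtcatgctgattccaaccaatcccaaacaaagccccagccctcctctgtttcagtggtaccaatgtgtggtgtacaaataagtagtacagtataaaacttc
TGFB1: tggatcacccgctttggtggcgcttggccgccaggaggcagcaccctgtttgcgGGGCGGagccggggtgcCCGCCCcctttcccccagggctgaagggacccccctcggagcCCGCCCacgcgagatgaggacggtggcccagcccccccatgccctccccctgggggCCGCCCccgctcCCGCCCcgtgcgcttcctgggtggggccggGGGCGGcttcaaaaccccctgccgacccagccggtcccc
TGFB2: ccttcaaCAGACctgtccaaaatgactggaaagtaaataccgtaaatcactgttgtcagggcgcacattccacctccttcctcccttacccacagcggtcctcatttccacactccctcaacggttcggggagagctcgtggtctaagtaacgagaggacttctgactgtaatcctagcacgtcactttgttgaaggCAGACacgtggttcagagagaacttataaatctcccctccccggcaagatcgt
SKIL: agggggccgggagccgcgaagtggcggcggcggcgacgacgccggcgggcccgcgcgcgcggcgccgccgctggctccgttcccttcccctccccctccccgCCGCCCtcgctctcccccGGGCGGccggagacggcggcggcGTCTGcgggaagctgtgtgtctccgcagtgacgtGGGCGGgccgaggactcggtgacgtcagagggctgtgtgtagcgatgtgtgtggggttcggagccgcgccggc
The INHBA window holds neither element. The TGFB1 window holds 6 GC boxes, between 39 and 196 bases before the start, and no CAGAC. TGFB2 has CAGAC 53 and 243 bases before its start and no GC box. SKIL has CAGAC at 107 bases and GC boxes at 73, 130 and 148 bases. No 2 of the marked elements overlap. Of all 35116 promoter windows of this length, 38% hold CAGAC and 42.6% hold GGGCGG, and the 10 genes have 25 listed starts, of which 11 hold CAGAC and 9 hold GGGCGG. The AP-1 element TGANTCA occurs in 6.57% of all windows and at 1 start of SMAD3. A match is a run of letters and not a shown binding site.

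Relative to the other transcripts of a library, RNA of ligands, of a receptor and of SMAD3 was higher in PGCC than in parental cells. The amount of RNA per cell was not measured. Of the 10 genes, 9 passed the filter on low counts, and 5 were higher and 0 lower in PGCC (edgeR quasi-likelihood test, Benjamini-Hochberg adjusted p under 0.05). INHBA led with 11.7-fold, followed by SMAD3, TGFB3, TGFBR2 and TGFB1. Over all 13812 genes tested in this comparison, 47.4% were called and 23.1% were called higher, with a median log2 fold change of -0.03, beside a median of 0.57 over the 9 members. With library totals in place of TMM factors, 60.2% of the calls over all genes were higher, against 48.7% with TMM, and the members' count was the same.

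INHBA encodes the subunit of activin A. In parental cells its level ran from 0.484 CPM over a median of 0.760 to 1.16 CPM, which rested on 7 to 20 counts per library. In PGCC it ran from 3.98 over 10.8 to 12.4 CPM, on 79 to 223 counts. Every PGCC library lay above every parental library, and the lowest PGCC values were those of replicates 4 and 5. The difference was 3.54 ± 0.32 (SE) on the log2 scale, with a 95% interval of 2.86 to 4.22 (edgeR, adjusted p = 1.06e-06). INHBA was higher in 6 of 6 same-numbered pairs, where 50.5% of all genes had 1 direction in all pairs, and its 2 groups of 6 did not overlap (exact permutation test over libraries, two-sided p = 0.00216, which is the lowest that 6 against 6 libraries can give).

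TGFB1, the main TGF-beta ligand of most tissues, moved less, by 0.09 to 0.68 on the log2 scale in the 6 same-numbered pairs. It ran from 160 CPM (replicate 5) over 177 to 192 CPM in parental cells and from 193 over 231 to 264 CPM in PGCC, so that the groups came close without touching. The difference was 0.40 ± 0.08 on the log2 scale, or 1.32-fold with an interval of 1.17 to 1.48 (edgeR, adjusted p = 8.41e-04; exact permutation p = 0.00216). TGFB3, a ligand known from palate and mesenchymal development, ran from 3.94 over 7.74 to 12.6 CPM in parental cells and from 9.83 over 12.6 to 17.7 CPM in PGCC. Its groups overlapped, and PGCC were higher in 6 of 6 same-numbered pairs. TGFB3 differed by 0.80 ± 0.25 (edgeR, adjusted p = 0.0168; exact permutation p = 0.0130), and without replicate 6 it differed by 0.71 with an adjusted p of 0.0640.

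TGFB2, the third ligand gene, had the widest spread of the 9 tested members among PGCC, with an SD of 0.87 in log2 CPM. It ran from 14.4 over 27.4 to 44.9 CPM in parental cells and from 16.6 over 47.5 to 64.01 CPM in PGCC. The groups overlapped, with replicates 4 and 5 lowest in both populations, at 17.8 and 14.4 CPM in parental cells and at 16.7 and 16.6 CPM in PGCC. The difference of 0.57 ± 0.36 did not pass the test (edgeR, adjusted p = 0.207; interval -0.20 to 1.34). With the replicate number as a block it was 0.48 ± 0.18 and passed (edgeR, adjusted p = 0.0410), being higher in 5 of 6 pairs. With the block, 6 of the 9 members were higher and 0 lower, where 27.9% of all genes were higher.

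**Figure D2:**
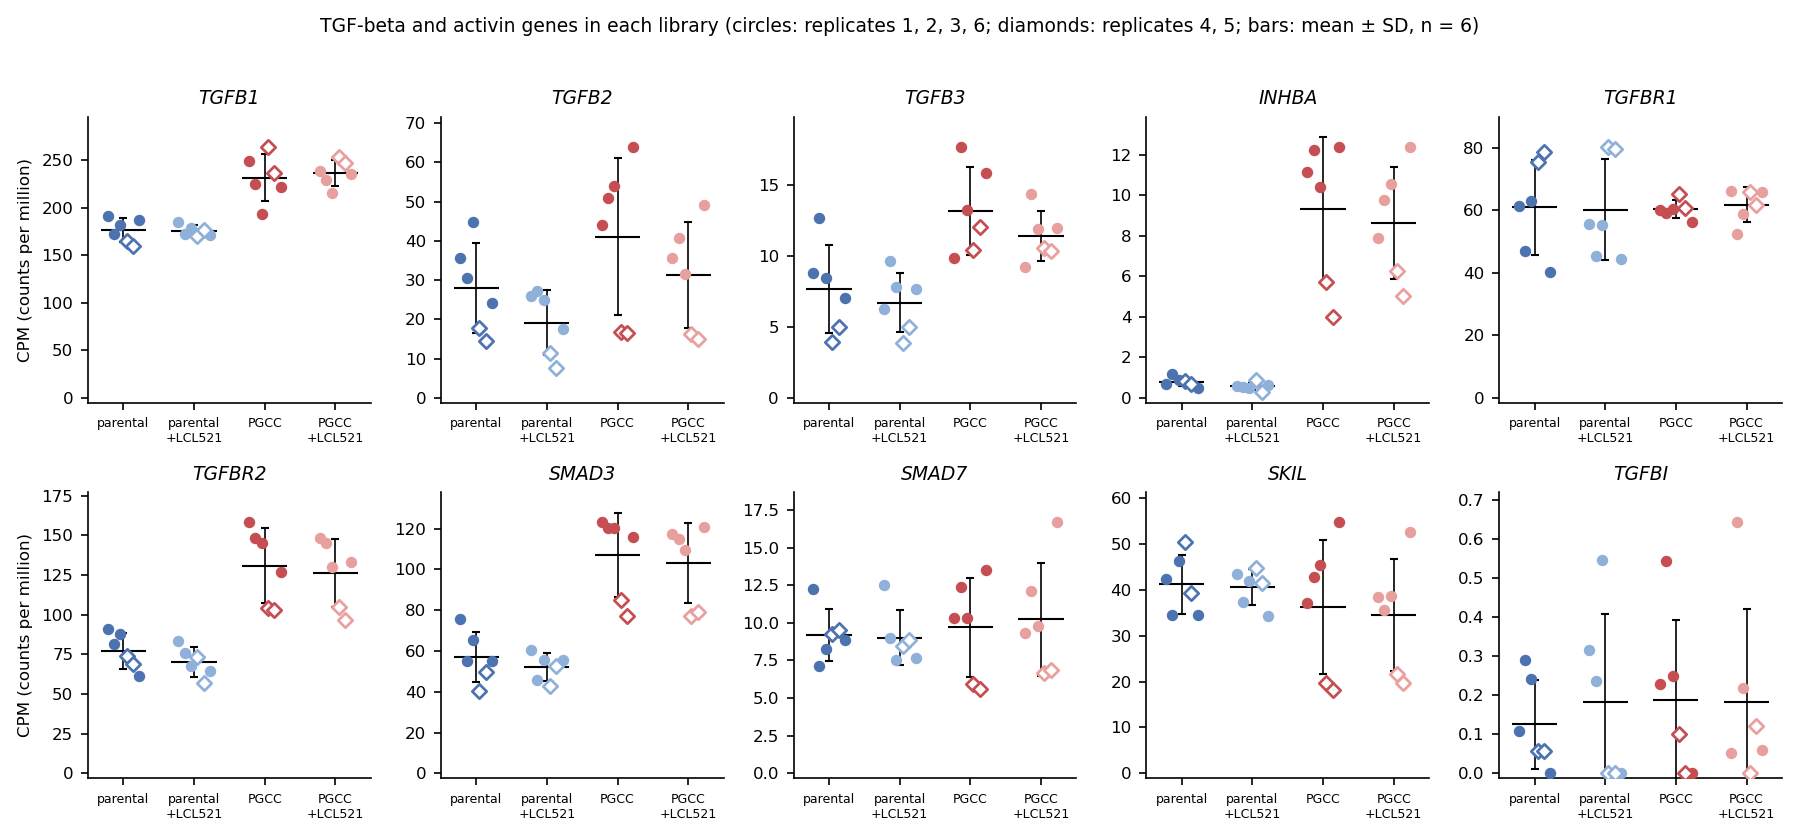
Level of each of the 10 genes (vertical axes, CPM, each from 0) in each of 24 libraries of the 4 conditions, circles for replicates 1, 2, 3 and 6 and diamonds for replicates 4 and 5, with mean and SD of 6 libraries as bars. INHBA lies at 0.484 to 1.16 CPM in parental cells and at 3.98 to 12.4 CPM in PGCC, and the diamonds sit lowest for TGFB2 in all 4 conditions.

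Of the receptors, TGFBR2 differed between the populations and TGFBR1 did not pass the test. TGFBR2, which binds the ligand, ran from 61.3 over 77.5 to 90.8 CPM in parental cells and from 103 over 136 to 158 CPM in PGCC. No PGCC library overlapped a parental one. Its difference was 0.77 ± 0.13, or 1.70-fold with an interval of 1.41 to 2.07 (edgeR, adjusted p = 2.50e-04; exact permutation p = 0.00216). TGFBR1, the kinase that phosphorylates the SMADs, ran from 40.4 over 62.2 to 78.4 CPM in parental cells and from 56.3 over 60.3 to 65.1 CPM in PGCC, inside the parental range. Its difference was -0.01 ± 0.14 with an interval of -0.31 to 0.30 (edgeR, adjusted p = 0.967). The ratio of TGFBR2 to TGFBR1 per length was 1.87 ± 0.467 (SD, n = 6) in parental cells and 3.08 ± 0.609 in PGCC, with ranges of 1.24 to 2.44 and 2.26 to 3.71 that overlapped.

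SMAD3, the mediator that binds DNA, ran from 40.3 over 55.1 to 75.6 CPM in parental cells and from 77.0 over 118 to 123 CPM in PGCC. The groups did not overlap, and the lowest 2 PGCC libraries were again replicates 4 and 5. SMAD3 was 1.89-fold higher (0.92 ± 0.16 on the log2 scale; edgeR, adjusted p = 3.11e-04; exact permutation p = 0.00216). INHBA, TGFB1, TGFBR2 and SMAD3 were thus the 4 members without overlap between the populations, all higher in PGCC, and 13.9% of all genes tested had that pattern.

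The inhibitors did not pass the test in either direction over all 6 replicates. SMAD7, which competes with SMAD3 at the receptor, ran from 7.13 over 9.07 to 12.2 CPM in parental cells and from 5.59 over 10.3 to 13.5 CPM in PGCC, and differed by 0.08 ± 0.22 (edgeR, adjusted p = 0.783; interval -0.40 to 0.56). SKIL ran from 34.4 over 40.8 to 50.5 CPM in parental cells and from 18.1 over 40.0 to 54.8 CPM in PGCC, and differed by -0.17 ± 0.24 (edgeR, adjusted p = 0.590; interval -0.69 to 0.35). For both genes the PGCC values spread to either side of the parental ones. TGFBI, a matrix protein gene named for its response to TGF-beta, had between 0 and 11 counts in all 24 libraries and was not tested. The limit that 3 counts set was 0.150 to 0.207 CPM per library. TGFBI reached at most 0.290 CPM in parental cells and 0.546 CPM in parental cells with LCL521. Its highest values were 0.545 CPM in PGCC and 0.644 CPM in PGCC with LCL521. A difference in TGFBI within these low levels was not detectable at this depth. Limits and intervals cover counting error or the spread between these libraries only.

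The same 5 genes were called in the 12 libraries with LCL521. These are other libraries than those above, but they were harvested on the same 6 occasions. Same-numbered libraries with and without LCL521 deviated together from their condition means (correlations of 0.385 to 0.813). The calls with LCL521 are therefore not an independent repeat. Of the 9 members tested, 5 were higher and 0 lower in PGCC with LCL521 than in parental cells with LCL521, where 48.9% of 13818 genes were called and 25% were called higher. INHBA ran from 0.306 over 0.548 to 0.871 CPM in parental cells with LCL521 and from 5.04 over 8.84 to 12.4 CPM in PGCC with LCL521. No library of one group reached the other, and the difference was 15.4-fold with an interval of 10.2 to 23.3 (edgeR, adjusted p = 8.88e-08). SMAD3 differed by 1.01 ± 0.13 (adjusted p = 2.12e-05), TGFBR2 by 0.88 ± 0.12 (adjusted p = 3.04e-05), TGFB3 by 0.79 ± 0.20 (adjusted p = 0.00392) and TGFB1 by 0.46 ± 0.06 (adjusted p = 2.76e-05) on the log2 scale in edgeR. INHBA, TGFB1, TGFBR2 and SMAD3 again had groups that did not overlap, a pattern that 14.4% of all genes had in this direction. TGFB2 differed by 0.75 ± 0.34 (edgeR, adjusted p = 0.0781) and, with the replicate block, by 0.75 ± 0.14 (adjusted p = 0.00180), higher in 6 of 6 pairs, beside 50.7% of all genes with 1 direction in all pairs. With the block 6 members were thus higher there, where 29.5% of all genes were. TGFBR1 (0.06), SMAD7 (0.22) and SKIL (-0.21) did not pass.

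**Figure D3:**
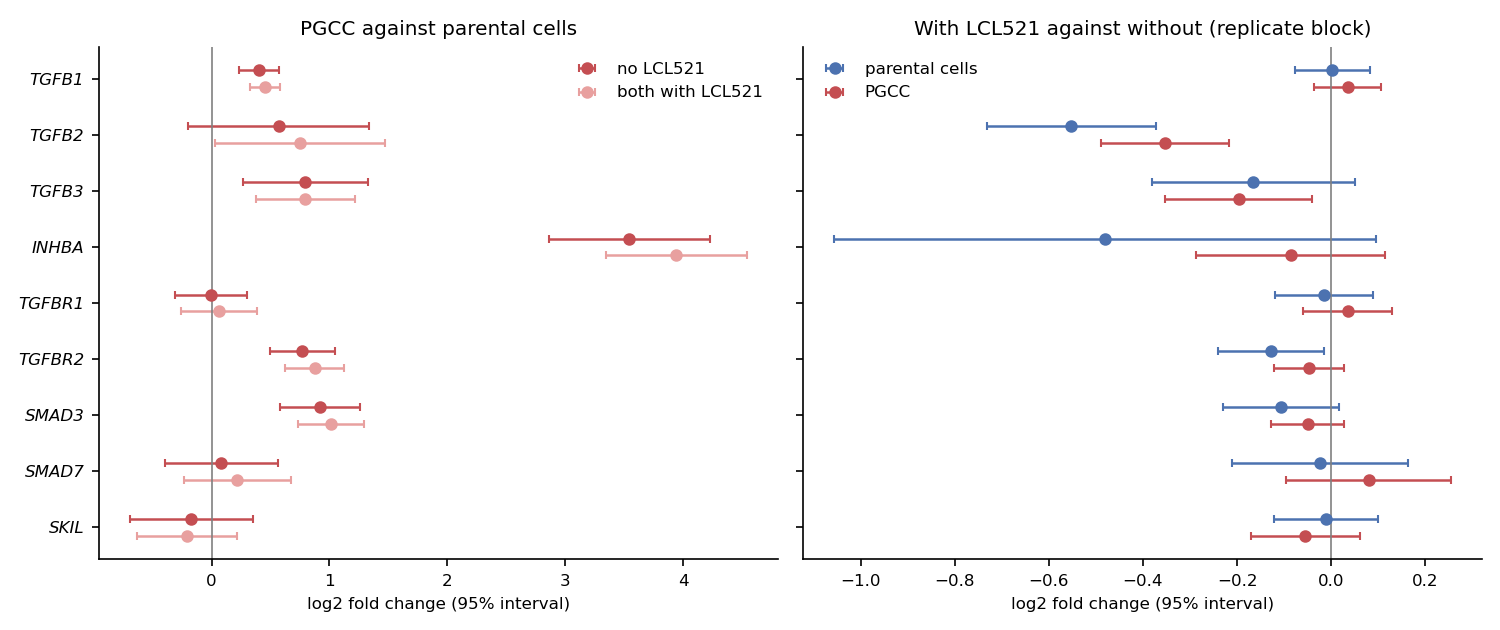
Log2 fold changes of the 9 members tested, as points with 95% intervals. Left, PGCC against parental cells without and with LCL521 (no block), with INHBA at 3.54 and 3.94. Right, cells with LCL521 against cells without it from fits blocked by replicate number, with TGFB2 at -0.55 in parental cells and -0.35 in PGCC.

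Replicates 4 and 5 split the members. In these cultures, SKIL was 18.1 and 19.8 CPM in PGCC, below the other 4 PGCC libraries, which lay at 37.2 CPM or above. In parental cells, SKIL of replicates 4 and 5 (50.5 and 39.3 CPM) lay within or above the range of the others. SKIL was therefore lower in PGCC than in parental cells in replicates 4 and 5 (a mean difference of -1.23 on the log2 scale) while the mean difference in replicates 1, 2, 3 and 6 was 0.19, with SKIL higher in 2 of these 4 pairs and replicate 6 (0.66) weighing most. SMAD7 had means of -0.69 in replicates 4 and 5 and 0.37 in the others (higher in 3 of 4 pairs), and TGFBR1 had -0.29 and 0.18 (higher in 2 of 4 pairs). These splits were seen in the data and were not tested. TGFB1 and TGFB3 were higher in all 6 pairs, by more in replicates 4 and 5 (0.62 and 1.31) than in the others (0.27 and 0.61), and INHBA by less (2.49 against 3.70).

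With LCL521, in other libraries of the same replicate numbers, replicates 4 and 5 again had the lower mean differences for these 3 genes. SKIL differed between the populations by -1.06 in replicates 4 and 5 and by 0.06 on average in the others, where only replicate 6 (0.61) was higher. SMAD7 differed by -0.35 and 0.37, and TGFBR1 by -0.33 and 0.28. TGFB2 was lower in replicates 4 and 5 in all 4 conditions, without overlap, with -1.04 on the log2 scale in parental cells and -1.66 in PGCC. In TGFBR1 the split lay in the parental cells, where replicates 4 and 5 averaged 77.0 CPM and the others 52.9 CPM. Without replicates 4 and 5, the 5 calls among the members became 6, all higher, where 27.7% of all genes were higher. TGFB2 came to 0.67 (edgeR, adjusted p = 0.00398) and SKIL to 0.21. With the replicate block as well, 7 were called, where 4513 of 13809 genes were higher, against 3829 without the block. The added member was SMAD7 at 0.38 (edgeR, adjusted p = 0.0413, against 0.0834 without the block). With LCL521, the 5 calls among the members became 7 without replicates 4 and 5 (no block), all higher, where 27.9% of all genes were higher. The 7 included TGFBR1 at 0.31 (edgeR, adjusted p = 0.0256).

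**Figure D4:**
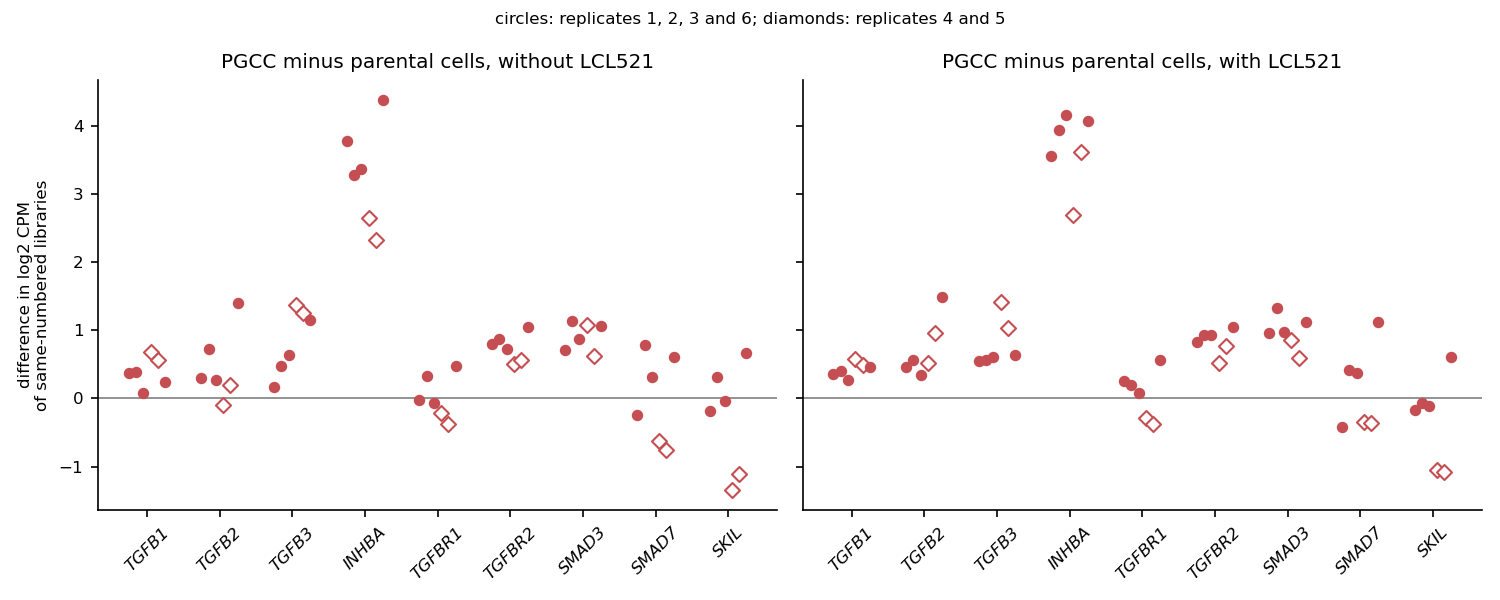
Difference in log2 CPM between PGCC and parental cells of the same replicate number (vertical axis) for the 9 members tested, without LCL521 on the left and with it on the right, circles for replicates 1, 2, 3 and 6 and diamonds for replicates 4 and 5. SKIL lies at -1.35 and -1.11 in replicates 4 and 5 without LCL521, and INHBA lies between 2.33 and 4.38 in the 6 pairs.

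No member was called after 5 h with LCL521 in the tests without a block. In parental cells 0 of the 9 members were called by edgeR, where 0% of 13277 genes were called, 71 genes having an unadjusted p under 0.05. That is fewer than a threshold of 0.05 gives without any effect, and with the block 1648 genes were under it. The absence of calls without the block therefore does not show that nothing changed. The members' differences ran from -0.54 to 0.00 on the log2 scale, none with an unadjusted p under 0.05. In PGCC again 0 of the 9 were called, where 0.00707% of 14151 genes were called (1 gene, INSIG1), and the differences ran from -0.38 to 0.08. DESeq2 called 0 members in both comparisons.

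With the replicate number as a block, TGFB2 was lower with LCL521 in both populations. In parental cells with LCL521, TGFB2 ran from 7.72 over 21.2 to 27.3 CPM, against 14.4, 27.4 and 44.9 CPM without it. The groups overlapped, but within each same-numbered pair the library with LCL521 was the lower one, in 6 of 6 pairs, by 0.16 to 0.89 on the log2 scale, and 8.06% of all genes had 1 direction in all pairs. The difference was -0.54 ± 0.33 without the block (edgeR, adjusted p = 1.00) and -0.55 ± 0.08 with it (edgeR, adjusted p = 0.00713; exact permutation test of the 6 pairs, two-sided p = 0.0312, the smallest it can give). There 0.866% of genes were called with the block and 0.346% were called lower. Leaving out any 1 replicate kept the blocked call (adjusted p = 0.00182 to 0.0360), and leaving out replicates 4 and 5 together did not (-0.48, adjusted p = 0.124).

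In PGCC with LCL521, TGFB2 ran from 15.1 over 33.7 to 49.1 CPM, against 16.6, 47.5 and 64.01 CPM without it. Again all 6 pairs were lower, by 0.04 to 0.77, the smallest steps being those of replicates 4 and 5, and 7.96% of all genes had 1 direction in all pairs. The difference was -0.38 ± 0.36 without the block (edgeR, adjusted p = 1.00) and -0.35 ± 0.07 with it (edgeR, adjusted p = 0.00362; exact permutation test of the 6 pairs, p = 0.0312), where 1.65% of genes were called with the block and 0.572% were called lower. Without replicates 4 and 5 the blocked difference was -0.45 (adjusted p = 3.11e-04). The other 8 members were not called in either population with the block, their differences lying between -0.48 (INHBA in parental cells, interval -1.06 to 0.10) and 0.08.

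The step with LCL521 was not shown to differ between parental cells and PGCC for any member. In the interaction test over 24 libraries 0 of the 9 members and 0% of 14555 genes were called by edgeR, 60 genes having an unadjusted p under 0.05 (148 with the block). Both counts are fewer than that threshold gives without any effect, so a difference may have been missed. The members' interaction values ran from -0.05 to 0.39 on the log2 scale. For TGFB2 the value was 0.16 with an interval of -0.92 to 1.25, and 0.25 ± 0.22 with the block.

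Other genes of the pathway were taken from 8 lists, and their counts in PGCC against parental cells are read beside the 23.1% of genes called higher and the 24.3% called lower. Genes of latency and activation leaned higher: of 14 tested, 9 were higher and 1 lower, with a median log2 fold change of 0.84. PLAU, which encodes the plasminogen activator urokinase, was 6.39-fold higher (67.1 ± 12.7 CPM in parental cells, 425 ± 199 CPM in PGCC, SD, n = 6; edgeR, adjusted p = 1.23e-05). LTBP1, a latent TGF-beta binding protein, was higher by 1.35 ± 0.12 (SE) on the log2 scale (adjusted p = 8.92e-07), and THBS1, thrombospondin 1, by 1.19 ± 0.30 (adjusted p = 0.00445). THBS1 rose in 5 of 6 pairs, with a mean of -0.11 in replicates 4 and 5. FURIN, the protease that cuts the ligand precursors, went the other way, from 62.7 ± 34.2 CPM to 23.0 ± 5.16 CPM (-1.44 ± 0.29, adjusted p = 0.00107). ITGB3, which the table lists in 2 rows of the same symbol, was left out.

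The other receptors and SMADs leaned lower. Of 9 other receptor genes tested, 0 were higher and 4 lower, with a median of -0.40, and of 6 other SMAD genes 0 were higher and 4 lower, with a median of -0.30. BMPR1A, a BMP type I receptor, was lower (-0.59 ± 0.12 on the log2 scale, adjusted p = 0.00132). The activin receptors ACVR2A (-0.47 ± 0.14, adjusted p = 0.0125) and ACVR1B (-0.47 ± 0.11, adjusted p = 0.00230) were also lower, in 6 of 6 pairs each (0 of 6 higher). SMAD4, the common partner, went from 40.9 ± 4.61 to 29.3 ± 2.45 CPM (-0.47 ± 0.10, adjusted p = 0.00110), SMAD2 from 50.3 ± 4.44 to 40.3 ± 1.44 CPM (-0.31 ± 0.08, adjusted p = 0.00429), and SMAD1, of the BMP branch, had -0.29 ± 0.10 (adjusted p = 0.0341). The remaining calls were ACVR2B, another activin receptor, which averaged under 2 log2 CPM (-1.22 ± 0.33), and SMAD5, of the BMP branch (-0.26 ± 0.08). SMAD3 and TGFBR2 were thus higher in PGCC while these 8 genes were lower. With LCL521 in both populations, BMPR1A, ACVR1B, SMAD2 and SMAD4 were again called lower, as was ACVR2B, and ACVR2A (-0.33, adjusted p = 0.0565), SMAD5 (-0.19, adjusted p = 0.0972) and SMAD1 (-0.15, adjusted p = 0.257) were not. The other receptors had 4 of 9 lower there, among them a receptor gene that was not called without LCL521. The other SMADs had 2 of 6 lower. Over all genes 23.9% were lower, and SMAD6 was higher in the blocked fit (edgeR, adjusted p = 0.0424).

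Of 5 other ligand genes tested 0 were higher and 1, INHBE, was lower, with a median of -0.07, and of 4 BMP ligand genes 2 were higher and 0 lower, with a median of 0.44. INHBE, an inhibin subunit gene of low level, had -1.86 ± 0.73 (edgeR, adjusted p = 0.0498). BMP4, which averaged under 2 log2 CPM, was higher by 1.66 ± 0.22 (adjusted p = 2.8e-05). BMP2, another bone morphogenetic protein, was higher by 0.62 ± 0.22 (edgeR, adjusted p = 0.0287), a call lost with the replicate block (adjusted p = 0.0651). Of 5 extracellular antagonists 2 were higher and 1 lower, with a median of 0.40. FST, which encodes the activin-binding follistatin, went from 62.0 ± 7.12 to 138 ± 39.8 CPM (1.17 ± 0.18, adjusted p = 1.42e-04), in the same direction as INHBA. FSTL1, a follistatin-like secreted protein, was higher by 0.71 ± 0.17 (adjusted p = 0.00336), and NOG, which encodes the BMP antagonist noggin, had -0.56 ± 0.16 (adjusted p = 0.00957).

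Intracellular regulators had no common direction. Of 18 tested 2 were higher and 5 lower, with a median of 0.04. NEDD4L, a ubiquitin ligase that acts on activated SMADs, was higher by 1.72 ± 0.21 (edgeR, adjusted p = 1.43e-05), and USP11, a deubiquitinase, by 0.39 ± 0.14 (adjusted p = 0.0292). Lower were TGIF2, a SMAD corepressor (-1.04 ± 0.15, adjusted p = 5.84e-05), ZFYVE9, which encodes the anchor protein SARA (-1.03 ± 0.12, adjusted p = 1.23e-05), and PPM1A, a phosphatase of activated SMADs (-0.60 ± 0.13, adjusted p = 0.00148), besides the corepressor SKI (-0.37 ± 0.13) and FKBP1A, a binding protein of type I receptors (-0.23 ± 0.08).

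Genes known to respond to SMAD3 leaned higher. Of 34 tested 19 were higher and 2 lower, with a median of 0.76. In the libraries with LCL521 23 were higher and 3 lower, beside 25% and 23.9% of all genes. CDKN1A, the p21 cell cycle inhibitor that p53 also switches on, was 13.3-fold higher (10.2 ± 3.79 to 135 ± 58.8 CPM; edgeR, adjusted p = 2.26e-06). CYR61, a matricellular gene that YAP also drives, was higher by 2.41 ± 0.22 (adjusted p = 1.43e-06), and FN1, fibronectin, by 2.37 ± 0.26 (adjusted p = 6.23e-06). SPARC, a collagen-binding matrix protein, was lower (-1.03 ± 0.08, adjusted p = 5.08e-07), and so was ID2, a helix-loop-helix inhibitor (-0.60 ± 0.19, adjusted p = 0.0187). Most of these genes answer to other pathways too, and LTBP2, THBS1, SMAD6, PMEPA1, MMP2 and MMP9 stand in 2 lists each. Without replicates 4 and 5, 25 of 34 response genes were higher and 2 lower, 12 of 14 latency genes were higher and 1 lower, and the other receptors had 0 higher and 5 lower of 9. In that fit 3829 of all 13809 genes tested were higher and 3714 lower.

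**Figure D5:**
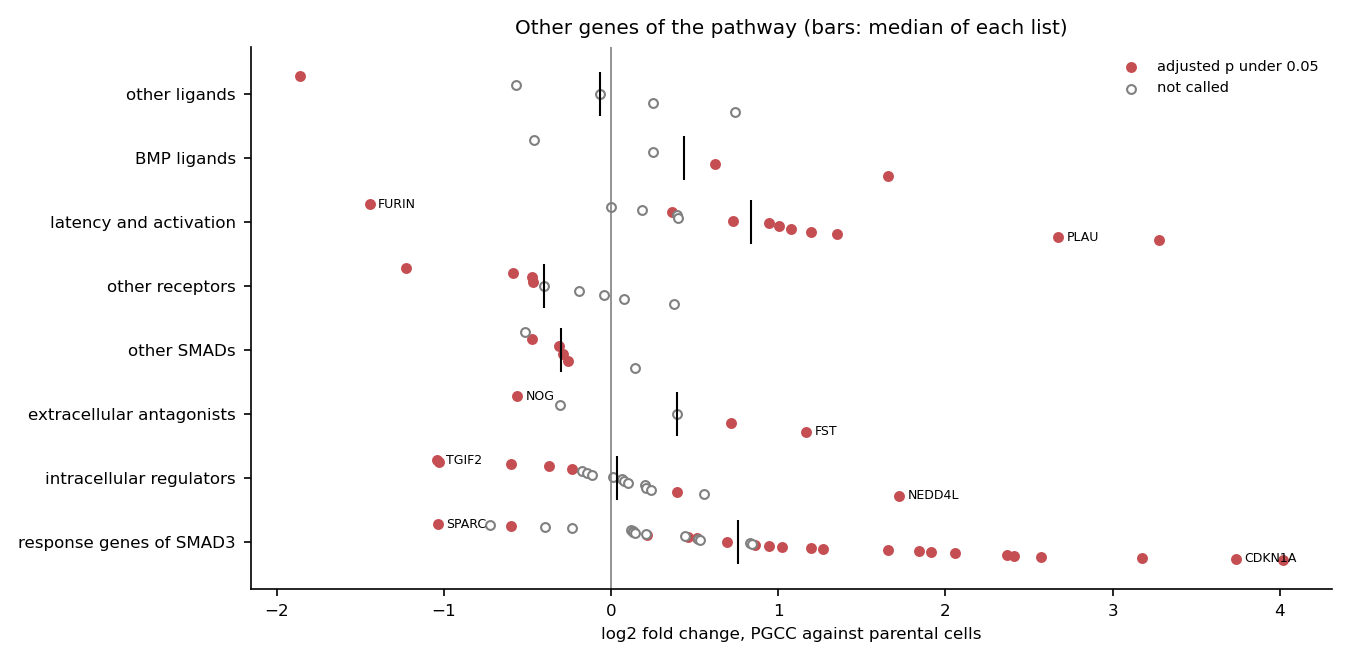
Log2 fold change in PGCC against parental cells (horizontal axis) of each tested gene in the 8 lists, red where the edgeR adjusted p was under 0.05 and open otherwise, with a black bar at the median of each list. The latency and response lists have medians of 0.84 and 0.76, and the other receptors and SMADs have medians of -0.40 and -0.30.

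With LCL521 some list genes were called in the blocked fit beside TGFB2, in either direction. In parental cells FST, CTGF and CYR61 were lower and GDF15 was higher, where 0.866% of all genes were called. By list, the calls were 1 of 4 other ligands, 1 of 5 extracellular antagonists and 2 of 32 response genes tested. CTGF, a matricellular gene, went from 47.3 to 28.4 CPM on average, by -0.72 on the log2 scale without the block, where its adjusted p was 1.00 (0.00713 with the block; edgeR). In PGCC FST, CTGF and CYR61 were again lower and GDF15 higher, and PLAU, SMURF2, NEDD4L and ID1 were among the others that were lower, with CDKN2B higher. In this fit of PGCC 1.65% of all genes were called. By list, the calls were 1 of 5 other ligands, 1 of 14 latency genes, 1 of 6 extracellular antagonists and 2 of 18 intracellular regulators. Of 34 response genes 1 was higher and 4 were lower. CTGF went from 147 to 116 CPM there (adjusted p = 1.87e-05 with the block), lower in 6 of 6 pairs (0 of 6 higher). Without the block none of these genes was called.

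The genes whose log2 CPM followed a member most closely over the 24 libraries are given by Pearson's r, as a description. The 24 points share the 4 conditions and the 6 cultures, so that any gene that moves with the population or with replicates 4 and 5 scores high. TGFB2 ran closest to PDGFB (0.947) and SNAI2 (0.943), INHBA to KRTAP3-1 (0.984) and PDP1 (0.981), and SMAD3 to DAPK3 (0.973) and RBMS1 (0.972). TGFBR2 ran closest to GUCY1A2 (0.960) and UAP1 (0.955), TGFB1 to RCN3 (0.955) and ACOT7 (0.954), and TGFB3 to ZNF273 (0.944) and FAM126A (0.939). TGFBR1 ran closest to DENND3 (0.911) and TANC1 (0.903), SKIL to ALG2 (0.887) and PPP3R1 (0.886), and SMAD7 to RHOB (0.831) and USP12 (0.811). After the mean of each condition was taken away, TGFB2 was still closest to PDGFB (0.966) and SNAI2 (0.964), while SKIL was closest to THBS1 (0.952), SMAD7 to BMP2 (0.914) and INHBA to BIRC3 (0.851). Among the members themselves, SMAD7 and SKIL had an r of 0.856 within conditions, and TGFBR2 had 0.795 with TGFB2 and 0.711 with SMAD3.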

How the data were processed

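RNA-seq libraries of PPC1 cells were analysed from the counts per gene that the authors deposited. Per the labels and the study's methods, STAR aligned the reads to hg19 and HTSeq counted them. These counts were not normalized, and whether strand was used is not given in the sources used here, so overlapping genes are uncertain. In R 4.3.3, genes were kept by filterByExpr of edgeR 4.0.16 (minimum count 10, minimum total 15), scaled by TMM and tested with the two-sided quasi-likelihood test on the 12 libraries of each comparison, or all 24 for the interaction. Benjamini-Hochberg adjustment ran over all genes tested, and genes under 0.05 were called. Intervals are at the 95% level. CPM were TMM-scaled, and log2 CPM carry a prior count of 2. For single genes, exact permutation p-values (two-sided) used 924 divisions of the libraries or 64 sign changes of the pairs.

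The series' design text says that all conditions were harvested in parallel each time. Same-numbered libraries were taken as paired because their deviations from the condition means correlated (0.171 to 0.813 in 24 pairs of libraries, median 0.428, against -0.0457 between other numbers). The match was weaker between the populations (0.171 to 0.444) than between libraries with and without LCL521 (0.385 to 0.813). Between the populations, replicates 4 and 5 without LCL521 and 3, 5 and 6 with it did not both match their own number best. A second version of each fit had a block for the number. Alternatives were DESeq2 1.42.0, limma 3.58.1 with voom, upper quartile or RLE factors, scaling by library totals, 2 other filters, all 24 libraries in one fit, a gene length correction with the block, and each replicate left out. Leaving out replicates 4 and 5 with the block, each single replicate with the block, and the lists without replicates 4 and 5 were settings chosen after seeing the data.

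The members and lists were chosen with earlier results of these data known. All 10 members are named. In the LCL521 comparisons, members called with or without the block get their own values. Each list gives its 3 largest called rises and falls among genes averaging 2 log2 CPM or more, and INHBE, BMP4, ACVR2B, SMAD5, SKI, FKBP1A, INSIG1 and the list genes of the blocked LCL521 fit were named after their values were seen. The procedure was tested on simulated counts. Values of endothelial markers other than VWF and CDH5 were not analysed here. Values of some list and marker genes are not reported here.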

Additional observations from a re-analysis of the deposited data

Results flagged for a closer look

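SMAD7 in parental cells with LCL521 had 1 library far from the others. Replicate 1 stood at 12.5 CPM, and the other 5 lay between 7.52 and 9.02 CPM. In log2 CPM its gap to the nearest was 0.646 of the whole range, above Dixon's 95% critical value for 6 libraries. Of 37 groups of 6 libraries checked, this was the only 1 past its limit, and chance gives about 1 in 20. SMAD7 of parental cells without LCL521 was also highest in replicate 1, at 12.2 CPM.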

How the results depend on the processing

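SMAD3, TGFBR2 and TGFB1 stayed higher in PGCC and past the threshold under every alternative run, in both population comparisons. INHBA did so under all but the filter of at least 10 counts in every library, which removed it, and TGFB3 did so except without replicate 6 (0.71 on the log2 scale, adjusted p = 0.0640). Leaving out 1 replicate left 4 to 5 members called without LCL521 and 5 to 6 with it. Signs turned for members that were not called. TGFBR1, PGCC against parental cells, came to 0.00344 on the log2 scale with RLE factors, 0.0880 with library totals, 0.0280 with at least 10 counts in every library, 0.00343 in DESeq2, 0.0276 in limma-voom, 0.0283 with the replicate block, 0.0149 with the block and a gene length correction, 0.176 without replicates 4 and 5 and 0.196 without them with the block. SMAD7 came to -0.00229 in limma-voom, and SKIL to 0.213 without replicates 4 and 5 (0.207 with the block) and, with LCL521 in both populations, to 0.110 (0.0986 with the block). Leaving out 1 replicate gave -0.0869 to 0.0822 for TGFBR1, -0.0659 to 0.215 for SMAD7 and -0.377 to 0.0234 for SKIL, and with LCL521 -0.0415 to 0.162 for TGFBR1 and -0.0376 to 0.347 for SMAD7. The cause was not tested.

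In the LCL521 comparisons the pairing by replicate number moved the counts most. In parental cells 0 genes were called without the block, 115 with it, 235 with the block and the length correction, and 3 with the block without replicates 4 and 5. In PGCC the count was 1 in the test without a block, 6 in DESeq2, 0 in limma-voom, 0 with all 24 libraries in one fit, 0 without replicates 4 and 5, and 0 to 1 with 1 replicate left out. With the block it was 234, with the length correction added 259, and without replicates 4 and 5 129. TGFB2 was the 1 member called in each of these blocked fits, except in parental cells without replicates 4 and 5. Without the block its adjusted p was 0.851 to 1.00 under all alternatives in both populations. With all 6 replicates, the block changed no call of a member other than TGFB2 in the 5 comparisons, and without replicates 4 and 5 it added SMAD7 in PGCC against parental cells (0.38, adjusted p = 0.0413). There the block also raised the genes called higher over the whole comparison from 3829 to 4513.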
